A study of Homo sapiens with 9 samples.

Results

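The early growth response factors EGR1, EGR2, EGR3 and EGR4 and their co-repressor NAB2 were examined by FAIRE-seq, which enriches for nucleosome-poor (open) chromatin, in the leukaemic T cell line Jurkat (clone E6-1, human). Regions were assigned to the 5 genes by position, and the genes themselves were chosen with earlier results of these data known. The 4 deposited peak lists were merged, overlapping or touching peaks were joined, and every merged region within the gene body or 50 kb of the transcription start site (TSS) of 1 of the 5 genes was kept. This gave 24 of 40703 regions on the autosomes, X and Y: 4 at EGR1, 6 at EGR2, 7 at EGR3, 2 at EGR4 and 5 at NAB2.

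The series holds 9 samples with 1 library each. Cells were pre-treated with the vehicle DMSO or with rottlerin (15 µM for 1 h), an inhibitor of protein kinase C, and were then left non-stimulated (NS), stimulated (ST), stimulated and rested after stimulus withdrawal (SW), or re-stimulated after that rest (RS). By the labels, stimulation was with PMA (24 ng/mL) and a calcium ionophore (1 µM) for 4 h, the rest lasted 1 day and re-stimulation 2 h. The labels name the second agent both as ionomycin and as calcium ionophore, and the study's methods give a shorter first stimulation. The remaining sample, a total input, was an equal mixture from unstimulated and stimulated cells and served as the common reference.

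The labels and the methods of the study disagree on which libraries the lists came from. The labels attach them to NS and SW cells after DMSO and after rottlerin, whereas the methods describe peak calling on the DMSO libraries of the NS, ST, SW and RS states. Merging the 4 lists gave 40731 regions on every contig and 40703 on the autosomes, X and Y. The size of this merged set is that of the set the methods describe for the DMSO libraries, which favours the account in the methods. Under that account the lists labelled SW DMSO, NS rottlerin and SW rottlerin would hold ST, SW and RS cells after DMSO, in an order the labels do not give. Each list is therefore named by its label only as a name, and no difference between lists is read as an effect of stimulation, rest or rottlerin. The list labelled NS DMSO is used as the reference because a NS DMSO library figures in both accounts, though the lists themselves do not show that it is that library.

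The lists held 18977 peaks (NS DMSO), 20132 (SW DMSO), 23835 (NS rottlerin) and 30409 (SW rottlerin), covering 6.69, 7.12, 8.51 and 11.5 Mb. The value given for a region is the fold enrichment of its strongest peak over total input, and its median per list lay between 4.03 and 4.08. With 1 library per list there was no replicate error and no test, the read depth is unknown, and an absent peak says that none was called, not that the chromatin was closed. In bulk chromatin, more cells with an open site and more opening per cell cannot be told apart. Among T cell genes checked at their TSS, CD3D, CD3E and CD28 had a region in all 4 lists, CD3G in the NS DMSO list alone and CD247 in the other 3, whereas CD2, CD7 and LCK had none. No region was called at the TSS of any of 4 B cell or 4 myeloid genes, and among 4 erythroid or epithelial genes only KRT8 had one.

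EGR proteins are zinc-finger transcription factors that bind GC-rich DNA. Their genes are immediate-early genes, whose transcription begins without new protein synthesis. Signals from the T cell receptor or PMA act through the ERK pathway on serum response factor (SRF) and its ELK partners. SRF binds CArG boxes in EGR promoters. NAB2 binds EGR1, EGR2 and EGR3 and represses their targets, and NAB2 is itself an EGR target. In T cells EGR2 and EGR3 are known for restraining activation, including through genes of the anergy programme.

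The promoter sequences of 4 of the 5 genes were found in the RefSeq table, and each was matched letter for letter to GRCh37, the build of the peak lists. They are shown because the lists differed in how far peaks covered them. Each runs 5′ to 3′ on the strand of its gene, from 250 bases before the TSS to 50 bases from it. Capitals mark EGR sites (GCGNGGGCG) and CArG boxes.
EGR1 promoter (chr5:137800918-137801217, plus strand): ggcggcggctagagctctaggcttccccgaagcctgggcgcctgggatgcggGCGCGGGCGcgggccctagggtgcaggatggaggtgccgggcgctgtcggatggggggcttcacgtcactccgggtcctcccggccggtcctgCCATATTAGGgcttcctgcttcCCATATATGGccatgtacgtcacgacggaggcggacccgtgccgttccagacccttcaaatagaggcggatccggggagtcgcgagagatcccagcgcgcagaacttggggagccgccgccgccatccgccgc
EGR2 promoter (chr10:64576077-64576376, minus strand): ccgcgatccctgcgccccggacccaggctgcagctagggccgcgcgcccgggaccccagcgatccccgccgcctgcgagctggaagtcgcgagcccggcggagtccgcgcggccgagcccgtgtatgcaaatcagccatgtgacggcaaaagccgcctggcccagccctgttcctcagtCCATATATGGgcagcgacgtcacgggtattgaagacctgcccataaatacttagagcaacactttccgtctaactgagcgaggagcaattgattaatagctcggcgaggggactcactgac
EGR4 promoter (chr2:73520627-73520926, minus strand): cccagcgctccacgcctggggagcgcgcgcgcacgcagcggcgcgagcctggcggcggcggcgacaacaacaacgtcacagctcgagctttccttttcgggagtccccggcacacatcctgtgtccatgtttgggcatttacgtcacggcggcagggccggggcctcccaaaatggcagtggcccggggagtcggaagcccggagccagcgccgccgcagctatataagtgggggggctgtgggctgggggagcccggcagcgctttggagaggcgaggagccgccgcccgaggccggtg
NAB2 promoter (chr12:57482647-57482946, plus strand): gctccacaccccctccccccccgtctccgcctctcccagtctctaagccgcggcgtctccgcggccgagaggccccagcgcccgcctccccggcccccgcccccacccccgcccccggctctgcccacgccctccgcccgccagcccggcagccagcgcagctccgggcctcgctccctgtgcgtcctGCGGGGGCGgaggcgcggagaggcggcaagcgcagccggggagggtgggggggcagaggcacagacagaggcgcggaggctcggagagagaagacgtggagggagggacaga

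The EGR1 promoter held a pair of CArG boxes, at -105 to -96 and -83 to -74 bp from the TSS, and an EGR site at -198 to -190 bp. In the EGR2 promoter a CArG box lay at -71 to -62 bp, and in the NAB2 promoter an EGR site lay at -62 to -54 bp. Neither motif was found in the EGR4 window. Of 35116 RefSeq promoters of this length, 1.29% held a CArG box and 9.43% an EGR site, on either strand. A match describes letters only and does not show binding.

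The next sequences are the middle 200 bases of regions away from these windows. They comprise the TSS regions of EGR1, EGR2 and NAB2 and the EGR1 and EGR2 regions that had no NS DMSO peak but a peak in at least 2 other lists, and are written on the plus strand. Capitals mark EGR sites, CArG boxes and AP1 sites (TGANTCA). The region at the start of ADO, which fits the same rule, is not shown because its middle lies in the 5′ untranslated part of that gene.
EGR1 TSS region (chr5:137800405-137800604): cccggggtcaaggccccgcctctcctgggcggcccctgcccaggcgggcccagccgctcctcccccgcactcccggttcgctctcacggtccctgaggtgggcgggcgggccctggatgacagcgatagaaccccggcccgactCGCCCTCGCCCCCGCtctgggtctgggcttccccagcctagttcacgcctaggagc
EGR1 +23.2 kb (chr5:137824276-137824475): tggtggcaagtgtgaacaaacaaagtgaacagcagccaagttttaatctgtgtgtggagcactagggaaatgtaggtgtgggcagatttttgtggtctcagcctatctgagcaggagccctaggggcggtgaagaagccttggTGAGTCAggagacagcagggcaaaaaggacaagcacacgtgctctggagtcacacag
EGR1 +26.7 kb (chr5:137827721-137827920): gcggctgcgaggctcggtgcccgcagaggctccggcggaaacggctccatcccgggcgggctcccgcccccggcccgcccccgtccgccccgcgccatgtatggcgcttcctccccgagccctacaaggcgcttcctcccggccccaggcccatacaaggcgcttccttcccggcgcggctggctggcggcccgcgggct
EGR2 TSS region (chr10:64576482-64576681): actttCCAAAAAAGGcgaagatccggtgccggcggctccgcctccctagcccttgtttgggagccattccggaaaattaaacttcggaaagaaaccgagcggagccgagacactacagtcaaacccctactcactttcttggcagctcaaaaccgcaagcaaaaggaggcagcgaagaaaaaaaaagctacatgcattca
EGR2 +36.7 kb (chr10:64539335-64539534): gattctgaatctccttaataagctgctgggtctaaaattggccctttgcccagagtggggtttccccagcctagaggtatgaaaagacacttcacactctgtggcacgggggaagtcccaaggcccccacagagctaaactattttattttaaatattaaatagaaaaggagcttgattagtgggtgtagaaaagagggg
EGR2 -39.9 kb (chr10:64615886-64616085): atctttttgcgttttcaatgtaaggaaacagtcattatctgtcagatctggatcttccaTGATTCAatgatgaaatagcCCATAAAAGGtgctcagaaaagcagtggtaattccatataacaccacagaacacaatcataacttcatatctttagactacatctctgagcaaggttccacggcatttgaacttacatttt
NAB2 TSS region (chr12:57481464-57481663): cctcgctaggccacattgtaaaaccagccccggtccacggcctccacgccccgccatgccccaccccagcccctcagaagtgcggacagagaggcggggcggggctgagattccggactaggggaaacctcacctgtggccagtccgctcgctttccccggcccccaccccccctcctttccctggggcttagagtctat

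In the middle of the EGR1 TSS region 2 overlapping EGR sites stood on the minus strand. The EGR2 TSS region held a further CArG box upstream of the one in its promoter, and the EGR2 region at -39.9 kb held both an AP1 site and a CArG box. The EGR1 region at +23.2 kb held an AP1 site. No EGR, CArG or AP1 match was found in the other windows shown.

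Of the 24 regions, 10 had a peak in the list labelled NS DMSO, 15 in SW DMSO, 14 in NS rottlerin and 24 in SW rottlerin. Over all 40703 regions the corresponding shares were 46.5%, 49.3%, 58.4% and 74.5%. The SW rottlerin list was the longest, and 6 of the 24 regions had a peak in it alone, against 18.2% of all regions. When every list was limited to its 18977 highest-scoring peaks, 21 regions remained at the 5 genes and 18 of them had a SW rottlerin peak. The share of all regions under this limit was not counted, so this count has no background beside it.

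No peak in the NS DMSO list was called at 14 regions (58.3%), close to the 53.5% of all regions. A peak in all 4 lists was called at 8 (26.6% of all regions), and 3 had a peak in every list but NS DMSO (7.08% of all regions). Without the SW rottlerin list, 19 regions were left and 9 of them had no NS DMSO peak, and the share of all regions was not recounted for this setting. The genes differed in this: 3 of 4 regions at EGR1, 5 of 6 at EGR2 and 5 of 7 at EGR3 had no NS DMSO peak, against 0 of 2 at EGR4 and 1 of 5 at NAB2. Position differed with it. Within 1 kb of the TSS of any coding gene, 3 of 10 regions had no NS DMSO peak (27.4% of all such regions), and farther away 11 of 14, or 78.6% (60.6% of all such regions).

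**Figure D1:**
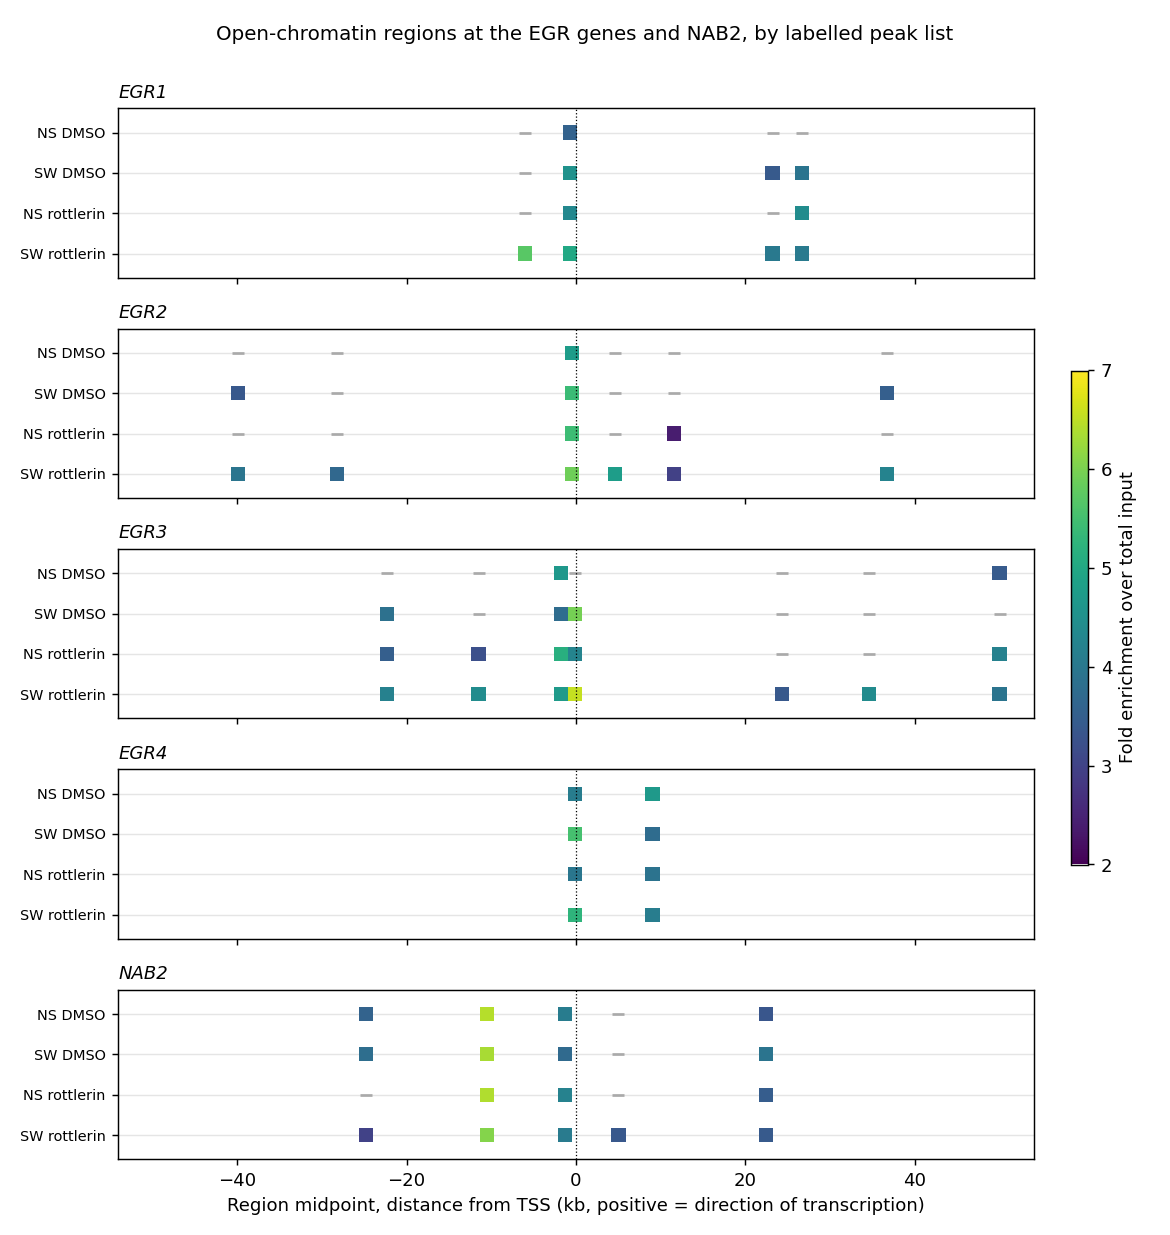
Position of the 24 regions by the distance of their midpoint from the TSS of each gene (x axis, kb, positive in the direction of transcription), with 1 row per labelled peak list. Squares mark a called peak and are coloured by fold enrichment over total input, and square size does not show region width. Grey dashes mark a region without a peak in that list. No NS DMSO peak was called at 3 of 4 regions at EGR1, 5 of 6 at EGR2 and 5 of 7 at EGR3. The same held for 0 of 2 at EGR4 and 1 of 5 at NAB2, and for 53.5% of all regions.

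At the transcription starts, EGR1, EGR2, EGR4 and NAB2 had a region within 1 kb of the TSS in all 4 lists, and EGR3 in every list but NS DMSO. Of 20162 coding genes, 47.3% had such a region in any list, 35.8% in the NS DMSO list and 2.45% in every list but NS DMSO. EGR3 alone of the 5 genes was in the last class. Whether the TSS base of the canonical transcript itself lay inside a peak was looked at after the values were seen. It lay inside a NS DMSO, SW DMSO, NS rottlerin and SW rottlerin peak at 28.4%, 29.5%, 33.3% and 37.9% of coding genes, and inside a peak of every list but NS DMSO at 2.46%. EGR1 and EGR3 were both in this last class, EGR2 had this base in a peak of all 4 lists, and EGR4 and NAB2 in none. These classes rest on peak edges that lay close to the TSS. The EGR1 peak in SW rottlerin ended 13 bp past the TSS, and the EGR2 peak in NS DMSO reached only to this base. The gene records of EGR4 and NAB2 begin upstream of this base and overlap their TSS regions, so their peaks do not miss the genes.

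**Figure D2:**
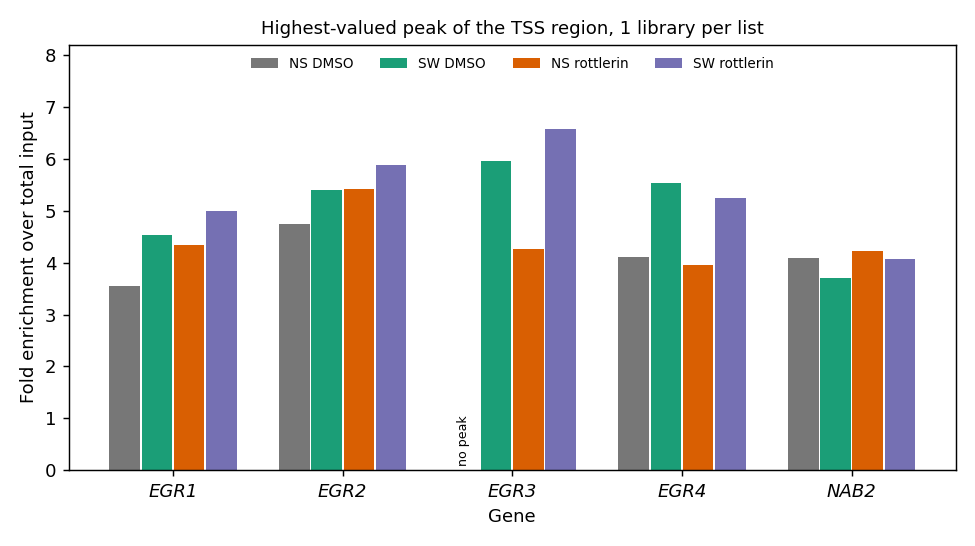
Fold enrichment over total input of the strongest peak in the TSS region of each gene (bars, linear axis from 0), by labelled list, with 1 library per list and so no error bars. EGR3 has no NS DMSO peak and reaches the highest value of the 5 genes, 6.57, in the SW rottlerin list, while the NAB2 bars lie between 3.71 and 4.22.

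EGR1, the most widely studied of the family, is on chromosome 5 (TSS at 137801168, GRCh37, plus strand). Its TSS region (137799755 to 137801255) had values of 3.55 in the NS DMSO list, 4.53 in SW DMSO, 4.33 in NS rottlerin and 4.99 in SW rottlerin. The NS DMSO value was the lowest of the 4, and below the middle of its list (27.7% of regions lower), whereas 77.9% of SW rottlerin regions lay below 4.99. The shape differed as well. The NS DMSO list had 2 narrow peaks of 167 and 202 bp, from -1357 to -1191 and from -515 to -314 bp. Their values were 3.55 and 3.40, so the NS DMSO value given is that of the peak farther from the TSS. Each of the other lists had 1 peak of 1385 to 1501 bp that ran past the TSS.

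These peaks covered 0 of the 300 bp of the EGR1 promoter window in the NS DMSO list, 293 in SW DMSO, 300 in NS rottlerin and 264 in SW rottlerin. Both CArG boxes of this window and its EGR site at -198 bp therefore lay inside a peak in 3 lists and outside in NS DMSO. Most of the sequence under the nearer NS DMSO peak was not searched for motifs. The window printed from the middle of the region, with its overlapping EGR sites, falls in the gap between the NS DMSO peaks. The region also overlaps the start of an unnamed long non-coding RNA (ENSG00000289267), and the signal of neighbouring starts cannot be told apart.

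The other 3 EGR1 regions were intergenic by GENCODE and none had a NS DMSO peak. The region at -5.99 kb (137795021 to 137795337) had a peak in SW rottlerin alone, and its value of 5.71 was higher than that of the TSS region in any list. The region at +23.2 kb (137824269 to 137824483), the one with the AP1 site, had values of 3.40 in SW DMSO and 4.02 in SW rottlerin. The region at +26.7 kb (137827671 to 137827971) had values of 3.93 in SW DMSO, 4.41 in NS rottlerin and 4.05 in SW rottlerin. It was the most GC-rich of the 24 regions, with 79.7% G or C in its middle 300 bp, and held 43 CpG dinucleotides.

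EGR2, which limits T cell activation and is better known for its role in myelinating Schwann cells, is on chromosome 10 (TSS at 64576126, minus strand). Its TSS region (64576062 to 64577101) had values of 4.75 in NS DMSO, 5.40 in SW DMSO, 5.42 in NS rottlerin and 5.89 in SW rottlerin. It was above the middle of every list, with between 73.4% and 90.8% of regions lower. Its promoter window was covered by 251, 299, 300 and 300 of 300 bp in that order, so that the CArG box at -71 bp lay inside a peak in every list. RefSeq gives EGR2 2 further starts, at -2409 and -2801 bp, and neither promoter window was touched by a peak in any list.

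The remaining 5 EGR2 regions had no NS DMSO peak. Past the end of the gene, the region at +36.7 kb (64539226 to 64539643) had values of 3.49 in SW DMSO and 4.23 in SW rottlerin. The region at +11.6 kb, at the TSS of ADO, a thiol dioxygenase gene (64564190 to 64564949), had 2.41 in NS rottlerin and 2.97 in SW rottlerin. The ADO values were the lowest of any region at the 5 genes, with 0.16% of NS rottlerin regions lower. Closest to EGR2 was a region at +4.65 kb, just past the gene's end (64571246 to 64571698), with a peak of 4.76 in SW rottlerin alone and an AP1 match. Upstream, the region at -28.2 kb (64604210 to 64604485) had a peak of 3.67 in SW rottlerin alone, and that at -39.9 kb (64615734 to 64616238), with an AP1 site and a CArG box, had 3.36 in SW DMSO and 3.94 in SW rottlerin.

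EGR3, which acts beside EGR2 in T cells, is on chromosome 8 (TSS at 22550993, minus strand). Its TSS region (22550925 to 22551253) was absent from the NS DMSO list and had values of 5.95 in SW DMSO, 4.26 in NS rottlerin and 6.57 in SW rottlerin. The SW DMSO and SW rottlerin values were above 93.1% and 95.7% of the regions of their lists, the highest rank of any region at an EGR gene. The SW DMSO peak ran from -204 to +38 bp, the NS rottlerin peak from -157 to +29 bp and the SW rottlerin peak from -260 to +68 bp. Of the 300 bp from 250 before the TSS, 0 were covered in NS DMSO, 243 in SW DMSO, 187 in NS rottlerin and 300 in SW rottlerin. A CArG box at -71 to -62 bp, the same distance from the TSS as in EGR2, lay inside the peak in those 3 lists.

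The nearest upstream region of EGR3, at -1.75 kb (22552076 to 22553404), showed another order, with values of 4.66 in NS DMSO, 3.74 in SW DMSO, 5.16 in NS rottlerin and 4.70 in SW rottlerin. It held an EGR site and overlaps the start of an unnamed long non-coding RNA (ENSG00000289521). Its lowest value thus fell in SW DMSO, where the neighbouring TSS region stood high. Peaks of 225 and 234 bp were called there in the NS lists and of 962 and 1329 bp in the SW lists.

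Farther from EGR3, 2 of 5 regions had a peak in SW rottlerin alone. These were at +34.6 kb in an intron of BIN3 (4.4, with an AP1 match) and at +24.3 kb at the TSS of BIN3 (3.38). The region at -11.5 kb had values of 3.22 in NS rottlerin and 4.41 in SW rottlerin, and that at -22.3 kb, in an intron of PEBP4 and with an AP1 match, had 3.84 in SW DMSO, 3.50 in NS rottlerin and 4.18 in SW rottlerin. The region at +50.0 kb, also in an intron of BIN3, had 3.42 in NS DMSO, 4.17 in NS rottlerin and 3.93 in SW rottlerin, and no SW DMSO peak. It was the only region of the 24 at an EGR gene that was called in NS DMSO and missing from SW DMSO.

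EGR4, the least studied member, is on chromosome 2 (TSS at 73520676, minus strand) and had the fewest regions. Its TSS region (73520705 to 73520951) ended 29 bp short of the TSS and had values of 4.10 in NS DMSO, 5.53 in SW DMSO, 3.96 in NS rottlerin and 5.25 in SW rottlerin. The values in the lists labelled SW thus stood above those in the lists labelled NS. Between 151 and 222 of 300 bp of the promoter window were covered. The region at +9.04 kb (73511519 to 73511756), at the TSS of the neighbouring F-box gene FBXO41, had values of 4.68, 3.75, 3.90 and 4.10 in the same list order, so its NS DMSO value was the highest.

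NAB2 is on chromosome 12 (TSS at 57482897, plus strand). Its TSS region (57480281 to 57482846) was the widest of the 24, at 2566 bp, ended 51 bp before the TSS, and had values of 4.08 in NS DMSO, 3.71 in SW DMSO, 4.22 in NS rottlerin and 4.07 in SW rottlerin. These values lay closer together than those at any EGR start. The region's middle lies at -1.33 kb, and the region also overlaps the gene record of NEMP1. The signal of the 2 genes cannot be told apart there. The promoter window was covered by 146, 33, 92 and 200 of 300 bp in that order, and the EGR site at -62 bp lay inside the SW rottlerin peak only.

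Of the other NAB2 regions, 3 lay in or at neighbouring genes. The region at -10.5 kb (57471801 to 57473037), at the TSS of the nuclear envelope gene NEMP1, had values of 6.44, 6.34, 6.41 and 6.08 in the order NS DMSO, SW DMSO, NS rottlerin and SW rottlerin. In the same order, the region at +22.4 kb (57504163 to 57506335), at the TSS of STAT6, the signal transducer of interleukin 4, had 3.34, 3.93, 3.45 and 3.40. A region at -24.8 kb in an intron of NEMP1, with MYO1A as its nearest coding TSS (57457174 to 57459020), had 3.58 in NS DMSO, 3.79 in SW DMSO and 2.98 in SW rottlerin. The NEMP1 start thus had the highest NS DMSO value of the 24 regions. Only the intronic region at +5.02 kb (57487836 to 57487999) had no NS DMSO peak, with 3.35 in SW rottlerin alone.

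**Figure D3:**
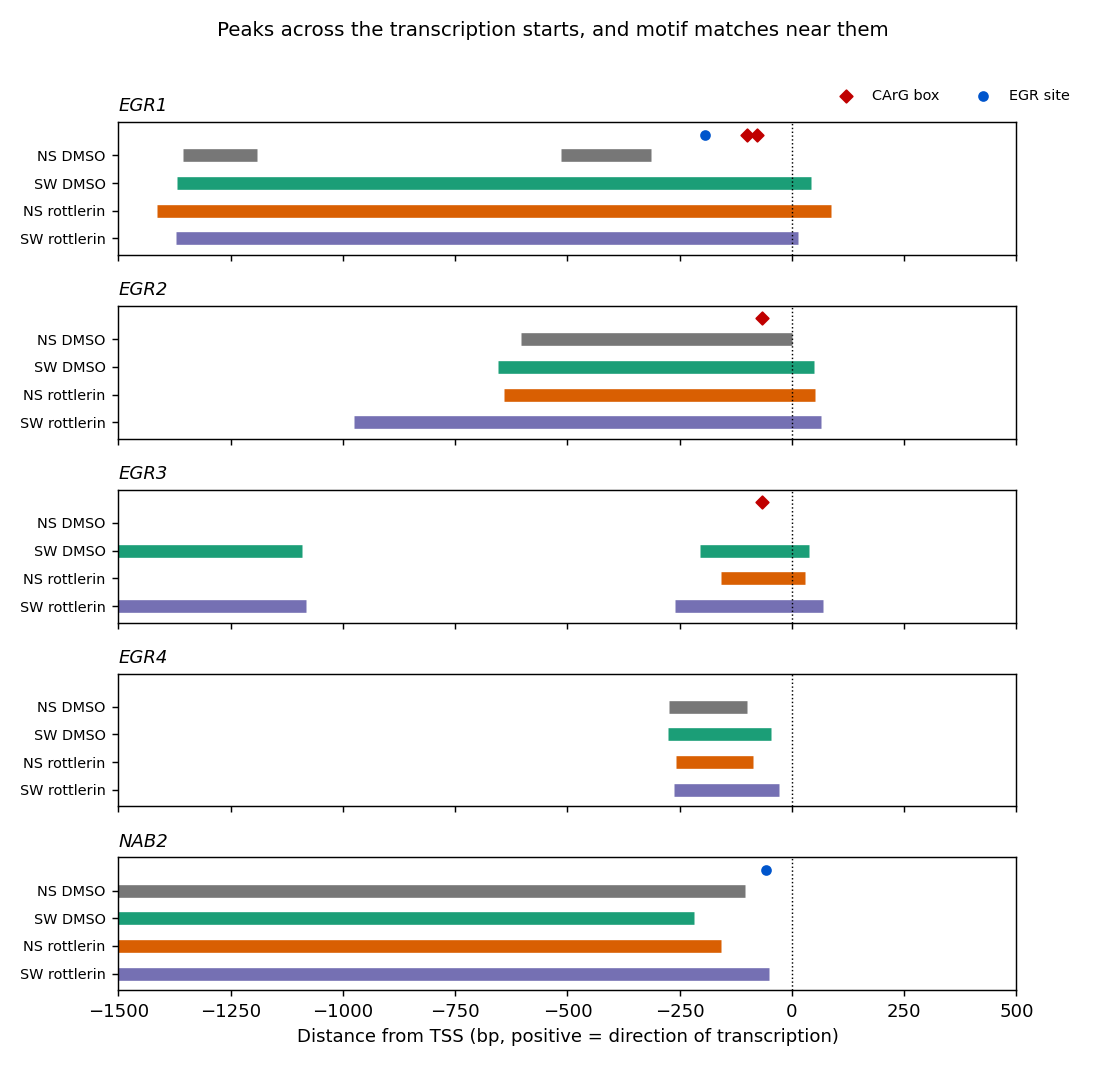
Peaks of each labelled list (bars, drawn to scale) around the TSS of the 5 genes (x axis, bp from the TSS, positive in the direction of transcription; bars that reach the left edge go on beyond it), with CArG boxes (diamonds) and EGR sites (circles) found in the promoter window. Of the CArG boxes drawn, the NS DMSO row has no bar over those of EGR1 and EGR3 and one over that of EGR2. Matches outside the promoter window are not drawn. The EGR1 NS DMSO peak from -515 to -314 bp lies outside that window, and most of it was not searched for motifs.

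Where a region had a peak both in the NS DMSO list and in another, the values were compared as a ratio. At the TSS region of EGR1 the ratio to NS DMSO was 1.276 in SW DMSO, 1.223 in NS rottlerin and 1.407 in SW rottlerin, higher than at 93.0%, 82.7% and 92.5% of all shared regions. At that of EGR2 it was 1.138, 1.141 and 1.241, higher than at 81.4%, 71.5% and 80.8%. At that of EGR4 it was 1.349, 0.965 and 1.280, higher than at 95.7%, 33.5% and 84.4%. At that of NAB2 it was 0.909, 1.034 and 0.997, higher than at 31.5%, 49.5% and 36.1%. The NAB2 ratio was below those of EGR1, EGR2 and EGR4 in SW DMSO and SW rottlerin, and between those of EGR4 and EGR2 in NS rottlerin. EGR3 had no ratio, having no NS DMSO peak at its TSS. For EGR1 the NS DMSO value was that of a peak more than 1 kb from the TSS, set against peaks that ran past the TSS.

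None of the ratios at the 5 genes reached 1.5 in either direction, over 9 shared regions for SW DMSO, 9 for NS rottlerin and 10 for SW rottlerin. Over all shared regions the median ratio was 0.98, 1.04 and 1.06. A ratio of at least 1.5 was found at 1.67% of 12550 regions in SW DMSO, 3.19% of 13702 in NS rottlerin and 4.5% of 14037 in SW rottlerin, and one of at most the inverse at 2.18%, 1.38% and 1.54%. The 3 ratios share their NS DMSO value and the input, so a low NS DMSO value moves all of them together.

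**Figure D4:**
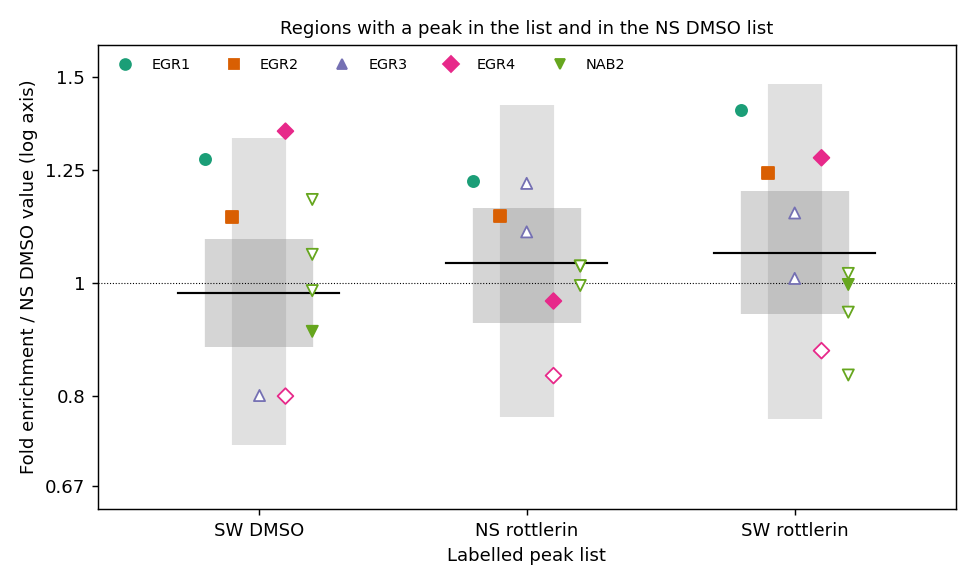
Ratio of fold enrichment in a labelled list to that in the NS DMSO list (y axis, log scale) for regions of the 5 genes with a peak in both; filled symbols are TSS regions and open symbols the others. Wide grey bars span the middle 50% and narrow bars the middle 90% of all shared regions, and the black line is their median; in SW DMSO and SW rottlerin the filled symbols of EGR1, EGR2 and EGR4 lie above the median and that of NAB2 below it.

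The rule took the regions by their position at the chosen genes, and no sequence trait entered it. The median G or C content of the middle 300 bp was 60.5% against 46.3% over all regions, and the median width 435.5 bp against 294 bp. Within 1 kb of a coding TSS the median content was 67.7% at the 5 genes and 65.0% over all such regions, and farther away 54.7% and 44%. The median width was 900 bp against 392 bp within 1 kb, and 367.5 bp against 276 bp farther away.

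In all, 7 motifs were searched in the middle 300 bp on both strands, and a match to 1 motif may overlap another. EGR sites were in 2 of the 24 regions (3.89% of all regions), at EGR1 and at EGR3, and CArG boxes in 3 (1.64%), at EGR2 in 2 and at EGR3 in 1. The CArG boxes of the EGR1 promoter lie outside the middle of its wide region and are not in this count. AP1 sites were in 5 (17.9%), and each of the 5 regions lay more than 1 kb from a coding TSS and had no NS DMSO peak. Among all 6899 regions that far from a coding TSS with an AP1 match, 78.7% had none either. ETS sites (CCGGAAG) were in 2 (5.94%), the cyclic AMP response element (TGACGTCA) in 0 (0.985%), NFAT sites (GGAAAA) in 5 (29.3%) and SP1 sites (GGGCGG) in 9 (22.6%). With counts this small no motif is set apart from the background.

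A list of 20 genes around the EGR factors was compared at the TSS: 13 had a region in all 4 lists, 2 in some but not in NS DMSO, and 5 in none. Over all 20162 coding genes these shares were 31.9%, 11.5% and 52.7%. The other co-repressor of the family, NAB1, had values of 3.32 in NS rottlerin and 3.64 in SW rottlerin only. DGKZ, a diacylglycerol kinase that damps T cell receptor signalling, had 4.18 and 4.44 in the same lists. No region was called at WT1, a zinc-finger factor with similar DNA binding, at ELK3 and MRTFB, which work with SRF, at RNF128, an anergy-linked ubiquitin ligase, or at CDKN1A, a cell cycle inhibitor. SRF, picked after the values were seen for its place at CArG boxes, had 7.04, 5.95, 6.0 and 6.89 in the order NS DMSO, SW DMSO, NS rottlerin and SW rottlerin. Its NS DMSO value was the highest of the 4.

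The genes whose TSS values over the 4 lists lay nearest to each member were found among 6434 coding genes with a TSS region in all lists, by the summed absolute log2 difference. Nearest to EGR1 were TSPYL4 (0.0805) and PPIE (0.13), to EGR2 GRPEL2 (0.0916) and YTHDF1 (0.109), to EGR4 STX12 (0.15) and NEIL2 (0.189), and to NAB2 ZBTB25 and ZBTB1 (0.0408 each), which share 1 region. TSPYL4, for example, had 3.49, 4.38, 4.34 and 5.02 in the list order above, against 3.55, 4.53, 4.33 and 4.99 at EGR1. With 4 values per gene, likeness of this kind is a description only. EGR3 could not enter, since it had no NS DMSO peak.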

How the data were processed

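FAIRE-seq reads from Jurkat cells were processed by the authors with CutAdapt, Bowtie2 (hg19) and Picard, and broad peaks were called with MACS2 against total input. Tool versions are not given in the sources used here. The deposited lists hold a score, a fold enrichment over input (a ratio), and −log10 p-values and q-values per peak. The deposited score was 10 times −log10 q in whole numbers, and some deposited peaks had q above 0.05. The other 5 samples have no peak list among the files analysed here.

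From these, with Python 3.11.15, pandas 2.3.3, numpy 2.4.6 and pysam 0.24.0, peaks on the autosomes, X and Y were merged. Regions were assigned with GENCODE release 44 on GRCh37, using canonical transcripts for the TSS. A TSS region lay within 1 kb, and its value was that of the strongest peak. RefSeq promoters come from a GRCh38 table and were placed by exact match. Named genes were the members, the genes nearest each region, list genes without a NS DMSO peak and the 2 nearest in pattern per member. The merging, assignment and motif search were tested on simulated data. The members and gene lists were chosen with earlier results of these data known.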

Additional observations from a re-analysis of the deposited data

Results flagged for a closer look

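At 8 regions of the 5 genes a peak was called in all 4 lists. At 2 of them the log2 ratios of SW DMSO to NS DMSO and of SW rottlerin to NS rottlerin had opposite signs. The lists are paired by label only. At each region 1 of the 2 log2 ratios was small. How often signs differ over all regions was not counted, so no trait of these genes is read from it. With 1 library each, the difference was not tested. At the FBXO41 start near EGR4 the log2 ratio of SW DMSO to NS DMSO was -0.32 (3.75 against 4.68). That of SW rottlerin to NS rottlerin was 0.07 (4.10 against 3.90), a difference of 0.39. At the STAT6 start near NAB2 the log2 ratios were, in the same order, 0.23 (3.93 against 3.34) and -0.02 (3.40 against 3.45), a difference of -0.26.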

How the results depend on the processing

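Leaving out each list and counting SW rottlerin peaks under other settings were chosen after seeing the data. The count of 24 regions became 11 with a 10 kb window and 39 with a 100 kb window, and lay between 19 and 25 without 1 list. Of the regions without a NS DMSO peak (14), 4 were left within 10 kb, and 9 to 15 without 1 list. The count was 9 without the SW rottlerin list, which alone held 6 of the 14 and whose peak joins 2 parts of the STAT6 region, 1 of them without a NS DMSO peak. Regions in all 4 lists (8) became 4 when the higher-scoring 50% of peaks per list were kept and 15 within 100 kb, and leaving out a list gives no such count. Those with a SW rottlerin peak (24) became 15 with the higher-scoring 50% and 11 within 10 kb, and remained 24 without any other list. EGR sites (2) were 4 in the central 500 bp and 1 as GCGTGGGCG. The other alternatives, including q-values of 0.05 or less, kept each count within 1.5 times, and all 36 recomputed TSS ratios stayed within 1.5 times of the value given. These settings could move the ratios little. A TSS limit of 500 bp left every ratio unchanged, and a length-weighted mean left those of EGR2, EGR4 and NAB2 unchanged. No paired analysis was possible because there is a single library for every labelled state. Shares over all regions were not recounted under these settings. The unknown depth limits every absent peak.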
